A study of Homo sapiens with 11 samples.

Results

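PMEL and MLANA encode melanosome proteins of the pigment cell lineage that T cells recognise as melanoma antigens. Their loci were taken as the RefSeq gene bodies on GRCh38 with 50 kb either side, and every peak of 5 antibodies overlapping these windows was described. PMEL (gene ID 6490) lies at chr12:55954105-55966709, a body of 12605 bp, and MLANA (gene ID 2315) at chr9:5890889-5910606, a body of 19718 bp. They are 2 of 20033 protein-coding genes in the annotation, and their windows held 153 and 130 of the 888435 narrow peaks in the series. The rule uses positions alone, and the genes were chosen with earlier results of these data known.

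Chromatin immunoprecipitation with sequencing (ChIP-seq) had been done in 92-1, an established human uveal melanoma line, after 4 h of either the solvent DMSO or FHT-1015, a compound that blocks SMARCA4 and SMARCA2, the motor subunits of BAF chromatin remodellers. The antibodies were against acetylated lysine 27 of histone H3 (H3K27ac), SMARCA4, MITF, TFAP2A (AP-2 in the sample titles) and SOX10. There was 1 library per antibody and condition. A DMSO input library made up the 11 samples, and no peak list of it was used here. No dose was given in the labels. Without replicates no test was possible, and each difference below is between 2 libraries of 1 cell line.

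As background, PMEL forms the fibrils on which melanin is laid down in the melanosome, and MLANA (Melan-A) is a small membrane protein that acts in PMEL processing. MITF is a basic helix-loop-helix factor that binds E-boxes and switches on pigment genes. SOX10, an HMG-box factor of the neural crest, acts with it and also drives the MITF gene itself. TFAP2A is a neural crest factor that shares many melanocyte enhancers with MITF. BAF complexes use the ATPase to slide or evict nucleosomes, and H3K27ac marks active promoters and enhancers.

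Neither gene stands alone. The annotated high-coordinate end of PMEL, where its transcription begins, is separated from the start of CDK2, a cell cycle kinase gene, by 120 bp, so the pair lies head to head and peaks between them belong to no single gene. DGKA, which encodes a diacylglycerol kinase, ends 81 bp short of the other end of PMEL. RAB5B (an endosomal GTPase), SUOX (sulfite oxidase), IKZF4 (a zinc finger factor) and PYM1 (a factor of mRNA surveillance and translation) complete the PMEL window. MLANA lies wholly inside the extent of BRD10, which is transcribed in the other direction, so each peak in MLANA is also in BRD10. ERMP1, a membrane peptidase gene, enters the MLANA window from the low-coordinate side.

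Starts in these windows differed in what they kept, and 3 promoter sequences, chosen after their peaks were seen, are shown as examples. At MLANA the MITF peak was weaker in FHT-1015 and SOX10 was lost. At RAB5B, a neighbour of PMEL, MITF and TFAP2A stayed level. SUOX carried H3K27ac and a weak SOX10 peak in both conditions, without MITF or TFAP2A. Many of these peaks are longer than the printed windows, so the bases do not show why a peak was kept or lost. The sequences are from RefSeq on GRCh38.p14, each with 250 bases before and 50 after the start, and capitals mark a motif match. Of the 10 protein-coding genes in the windows, 8 had an entry, and PMEL and CDK2 did not.
MLANA, chr9:5890639-5890938, plus strand: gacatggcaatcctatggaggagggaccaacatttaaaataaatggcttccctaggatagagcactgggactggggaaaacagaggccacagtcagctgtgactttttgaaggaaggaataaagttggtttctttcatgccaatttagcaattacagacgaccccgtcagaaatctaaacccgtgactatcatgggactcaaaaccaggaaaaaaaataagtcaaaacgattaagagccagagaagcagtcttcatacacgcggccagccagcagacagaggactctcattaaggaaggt
RAB5B, chr12:55973699-55973998, plus strand: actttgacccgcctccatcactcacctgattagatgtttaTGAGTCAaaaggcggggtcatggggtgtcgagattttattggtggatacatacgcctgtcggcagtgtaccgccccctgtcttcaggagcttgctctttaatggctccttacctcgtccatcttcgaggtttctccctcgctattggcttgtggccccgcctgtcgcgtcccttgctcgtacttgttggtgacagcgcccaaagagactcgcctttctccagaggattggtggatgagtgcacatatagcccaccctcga
SUOX, chr12:55997026-55997325, plus strand: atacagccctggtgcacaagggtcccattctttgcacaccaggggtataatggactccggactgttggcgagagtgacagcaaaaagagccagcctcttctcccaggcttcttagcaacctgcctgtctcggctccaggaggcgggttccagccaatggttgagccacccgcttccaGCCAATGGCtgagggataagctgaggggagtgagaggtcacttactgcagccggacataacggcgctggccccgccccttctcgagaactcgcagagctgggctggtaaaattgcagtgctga
Motifs were searched on both strands: CATGTG and CACGTG (E-boxes), ACAAAG and ACAATG (SOX), GCCNNNGGC (AP-2) and TGANTCA (AP-1), of which CACGTG, GCCNNNGGC and TGANTCA read the same on both strands. The MLANA window held none of them. The RAB5B window held TGAGTCA from -210 to -204 relative to the start, and the SUOX window held GCCAATGGC from -73 to -65. Among 35116 promoters of the same length, TGANTCA occurred in 7.71%, GCCNNNGGC in 23.2%, CATGTG in 11.1%, CACGTG in 7.26%, ACAAAG in 16.1% and ACAATG in 10.8%. A match is not a bound site, and the absence of these letters from a window says nothing of the factor.

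Peak values were the authors': a fold enrichment and a −log10 p per peak. They were used to rank peaks within a list and to recover the reads at each peak summit. A −log10 p depends on depth, so values from different lists are printed side by side as descriptions only. The FHT-1015 library had 1.05 times the depth of its DMSO partner for H3K27ac and 1.15 times for SOX10, and 0.918, 0.854 and 0.96 times for SMARCA4, MITF and TFAP2A. The SOX10 FHT-1015 library stood apart: its reads came out whole only after division by 0.8896, and both SOX10 libraries bore identifiers unlike each other and unlike the rest, whose meaning the labels do not give. The part of this in the SOX10 results was not tested. No value could be given without that library, since it is the only one of its kind.

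Retained here means that a DMSO peak overlapped, by 1 bp or more, a peak called with that antibody in FHT-1015, and lost means that it overlapped none. By this overlap rule SOX10 had the lowest retained share at both genes. Where summits had to lie within 200 bp, H3K27ac was lower at PMEL (15.8% against 19% for SOX10), and among strong peaks alone (−log10 p 10 or more in each list) SMARCA4 and SOX10 were both at 0% at MLANA. The MLANA window held 21 SOX10 peaks under DMSO against 2 under FHT-1015, and 2 of the 21 were retained (9.52%, 95% Clopper-Pearson interval 1.17 to 30.4%). At PMEL the 21 SOX10 peaks in DMSO stood against 8 in FHT-1015, with 5 retained (23.8%, interval 8.22 to 47.2%). Over the whole SOX10 list 18.3% of DMSO peaks were retained, so both shares lay near the background, and the intervals include it. These intervals cover counting error only. With q under 0.05 in both lists, 2 of 21 SOX10 peaks were retained at PMEL (9.52%) and 1 of 20 at MLANA (5%). No whole-list share was taken at that threshold.

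The other antibodies differed between the 2 genes. MITF had 12 DMSO and 7 FHT-1015 peaks at PMEL and 15 and 11 at MLANA, of which 4 (33.3%) and 7 (46.7%) were retained, against 36.2% in its whole list. TFAP2A had 15 and 16 peaks at PMEL, with 11 retained (73.3%), and 15 and 9 at MLANA, with 7 retained (46.7%), and its background was 54.9%. SMARCA4 had 21 and 20 peaks at PMEL, with 18 retained (85.7%, interval 63.7 to 97.0%), above the 52.0% of its list. At MLANA SMARCA4 peaks were more numerous in FHT-1015, 17 against 13, with 8 of the 13 retained (61.5%). In the broad lists that direction turned, with 13 SMARCA4 peaks in FHT-1015 and 17 in DMSO, a ratio of 0.765. H3K27ac had 19 and 14 peaks at PMEL and 15 and 12 at MLANA, of which 9 (47.4%) and 6 of 15 were retained, against a background of 59.3%. Except for SMARCA4 at PMEL, each interval included the background. That exception belongs to the 1 bp rule. With 50% of the DMSO peak covered the share was 61.9% (interval 38.4 to 81.9%), and with summits within 200 bp 52.4% (29.8 to 74.3%). No whole-list share was taken under those rules. The interval treats peaks as independent, yet the FHT-1015 SMARCA4 peak at chr12:55966271-55968397 alone overlapped 3 DMSO peaks.

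**Figure D1:**
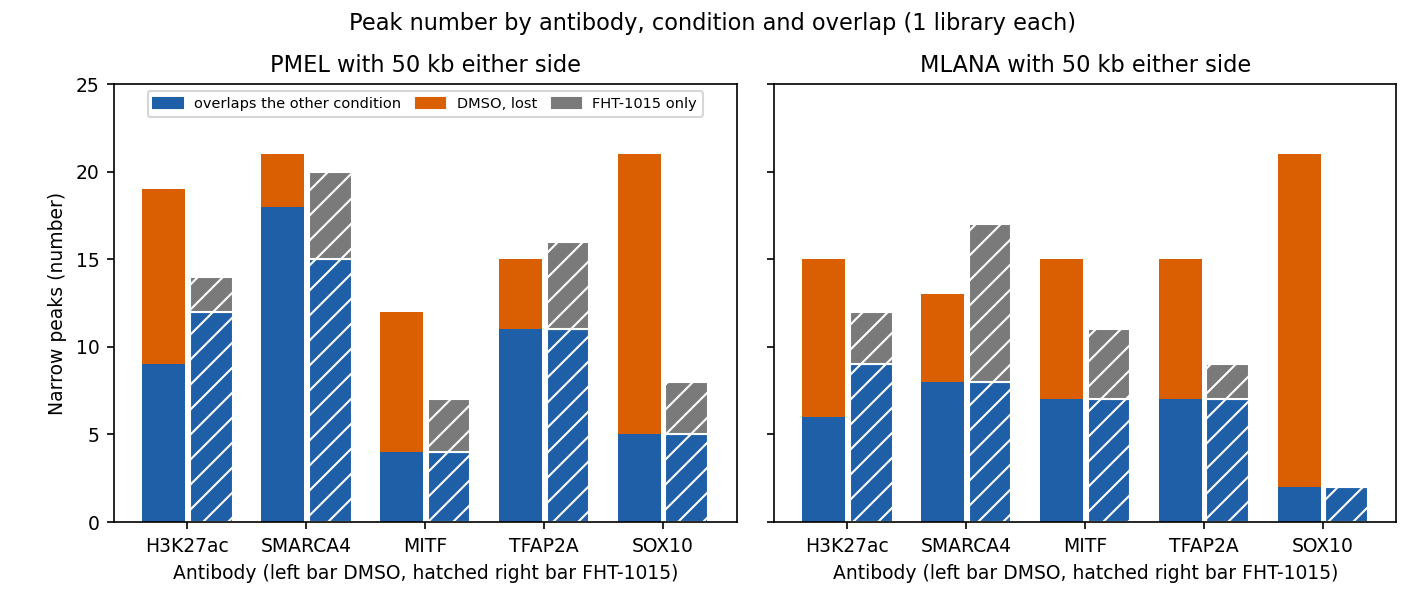
Number of narrow peaks (vertical axis) per antibody in the PMEL and MLANA windows, 1 library per bar, with the DMSO bar at left and the hatched FHT-1015 bar at right; blue is peaks that overlap a peak of the other condition, orange lost DMSO peaks, grey FHT-1015 peaks with no DMSO peak. SOX10 goes from 21 to 8 at PMEL and from 21 to 2 at MLANA, while SMARCA4 at MLANA goes from 13 to 17.

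Counts of weak peaks hide the strong ones. Where the −log10 p was 10 or more, SOX10 had 6 at each gene in DMSO, of which 2 at PMEL and 1 at MLANA overlapped any FHT-1015 peak (33.0% in the whole list). MITF kept 3 of 4 at PMEL and 6 of 9 at MLANA (61.7%), and TFAP2A 8 of 9 and 4 of 8 (71.5%). H3K27ac kept 8 of 8 and 4 of 6 (87.6%), and SMARCA4, with few peaks of that strength, 2 of 2 and 1 of 2 (85.2%). Among the strongest 10% of each DMSO list, the windows held 2 SOX10 peaks at PMEL and 3 at MLANA, and 1 at each gene was retained, against 47.0% of all such peaks. All 2 MITF peaks of that class at PMEL and all 3 at MLANA were retained (85.4%), as were 2 TFAP2A peaks at each gene (89.8%), 2 H3K27ac peaks at PMEL and 1 at MLANA (99.8%) and 1 SMARCA4 peak at PMEL (89.4%).

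At PMEL the strongest binding lay outside the gene, inside CDK2, about 4.2 kb upstream of the PMEL start. Summits of all 4 proteins fell within 57 bp of one another there. The SOX10 peak (chr12:55970410-55971404) had 225 summit reads in DMSO and 33 in FHT-1015, with a −log10 p of 262 and 11.0, and ranked in the top 0.035% of the DMSO SOX10 list. Divided by the ratio of library depths, the reads in FHT-1015 were 0.128 times those in DMSO (95% interval 0.086 to 0.185, counting error only). This quotient is called the depth-scaled ratio below. Among the strongest 10% of SOX10 peaks the median ratio of retained peaks was 0.405, and 0.907% had a lower one than this peak.

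The other proteins were weaker in FHT-1015 at the same site. The MITF peak (chr12:55970386-55971275), in the top 0.08% of its list, had 235 reads in DMSO and 44 in FHT-1015, a ratio of 0.219 (0.155 to 0.304). TFAP2A (chr12:55970491-55971154) had 156 and 22 reads, a ratio of 0.147 (0.0895 to 0.23). SMARCA4 (chr12:55970361-55971721), its strongest peak in the window and in the top 0.35% of its list, had 70 and 21 reads, a ratio of 0.327 (0.191 to 0.539). For comparison, retained peaks of the strongest 10% had a median ratio of 0.473 for MITF, 0.513 for TFAP2A and 0.895 for SMARCA4. So each of the 4 proteins kept a called peak at this site, with a ratio below the median of its strongest peaks.

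The PMEL start behaved differently for each protein. A broad SOX10 peak from chr12:55964486 to 55967129 spanned the start with its summit 0.743 kb inside the gene, had 75 reads and a −log10 p of 53.8 in DMSO, and was lost: it was the strongest lost SOX10 peak of the window. MITF was concentrated 1.28 kb inside the gene (chr12:55965038-55966110), with 194 reads in DMSO and 59 in FHT-1015, a ratio of 0.356 (0.262 to 0.479). Among paired MITF peaks of the strongest 10%, 36.2% had a lower ratio. TFAP2A had 2 adjacent peaks. The one under the MITF peak (chr12:55965131-55965684) had 44 and 17 reads, a ratio of 0.402 (0.216 to 0.719). The one on the start itself (chr12:55965773-55967089) had 109 reads in DMSO and 130 in FHT-1015, a ratio of 1.24 (0.956 to 1.62), an interval that includes 1. These 2 TFAP2A peaks had intervals that did not overlap, about 1 kb apart in the same pair of libraries. SMARCA4 at the start (chr12:55966281-55967177) had 25 and 31 reads, a ratio of 1.35 (0.772 to 2.39). A small MITF peak on the start (chr12:55966501-55966826, 14 reads) was lost, and another on the CDK2 side (chr12:55966934-55967248) had 15 and 12 reads, a ratio of 0.937 (0.4 to 2.14).

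**Figure D2:**
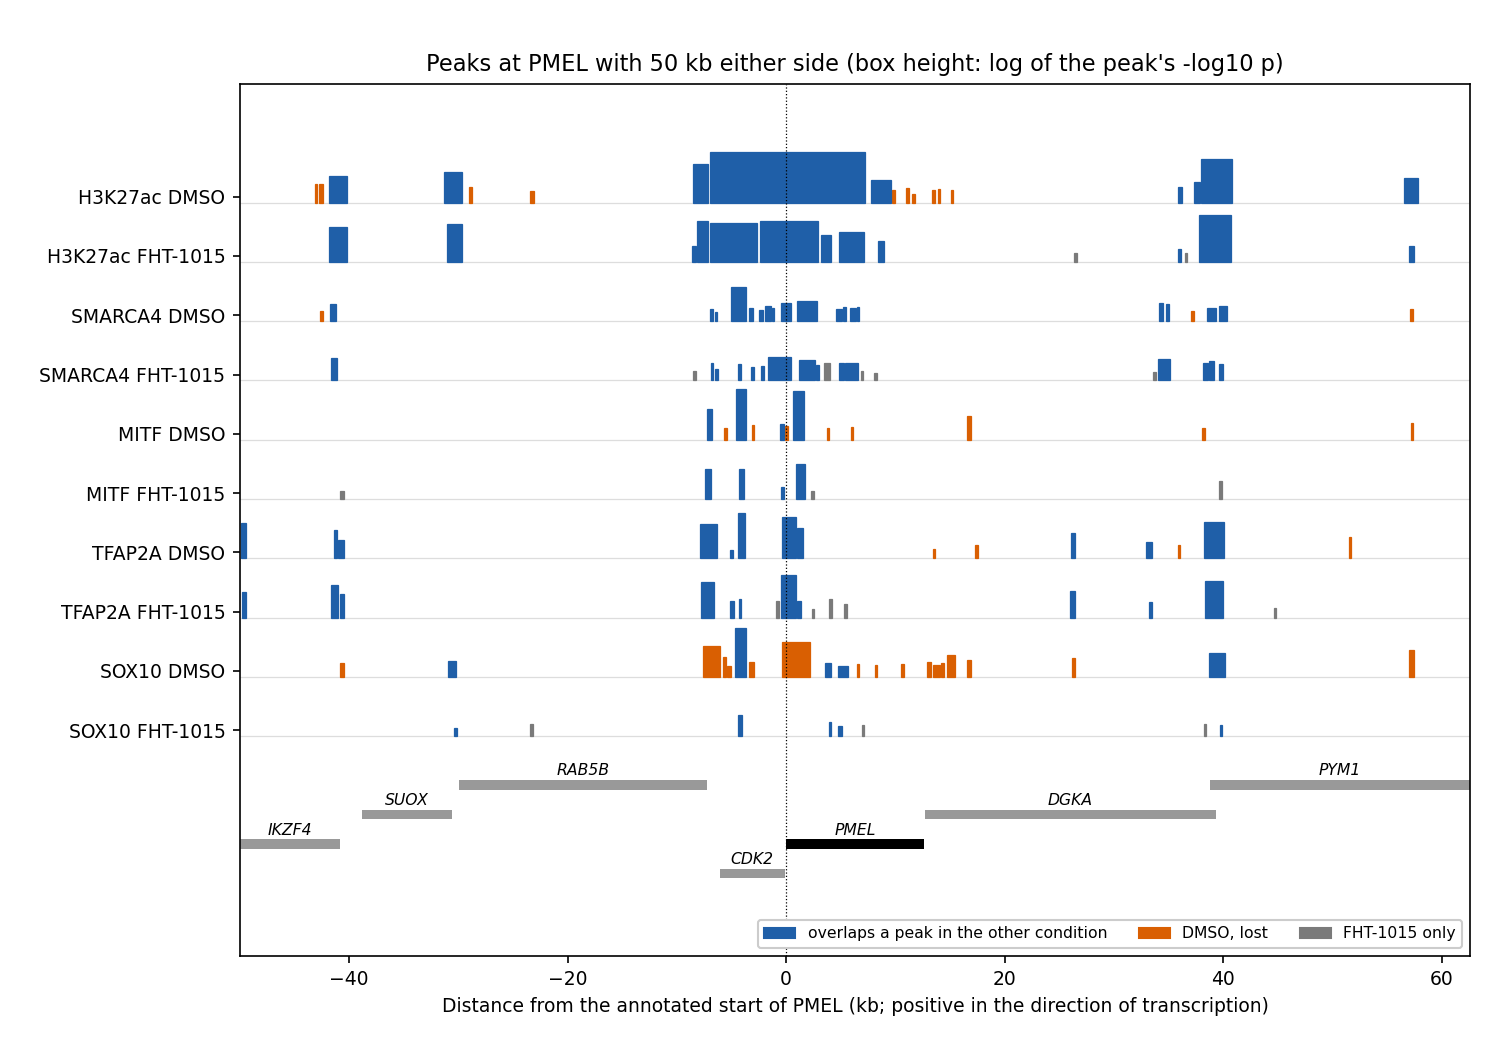
Map of peaks at PMEL by antibody and condition; the horizontal axis is distance from the annotated PMEL start in kb, box width is the peak's length, box height the logarithm of its −log10 p, and bars below are protein-coding genes. The tall boxes at -4.2 kb inside CDK2 and at 1.28 kb inside PMEL appear in both conditions for MITF, whereas the SOX10 row for FHT-1015 holds 8 short boxes.

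The PMEL window also holds the starts of RAB5B, PYM1, DGKA, SUOX and IKZF4. At RAB5B, which begins at -7.24 kb from the PMEL start, MITF (chr12:55973536-55973986) had 50 reads in DMSO and 46 in FHT-1015, a ratio of 1.08 (0.706 to 1.64). TFAP2A there (chr12:55973068-55974574) had 79 and 88 reads, a ratio of 1.16 (0.847 to 1.59), and H3K27ac (chr12:55973899-55975239) 107 and 122, a ratio of 1.09 (0.83 to 1.42). SOX10 at RAB5B (chr12:55972775-55974286, 58 reads, −log10 p 33.7) was lost. The start is thus one place where MITF and TFAP2A were level while SOX10 was not called, and its sequence is the second of those printed above.

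At the shared start of PYM1 and DGKA, H3K27ac (chr12:55925859-55928737) had 153 and 187 reads, a ratio of 1.16 (0.935 to 1.45), and TFAP2A (chr12:55926646-55928469) 97 and 96, a ratio of 1.03 (0.769 to 1.38). SOX10 kept a called peak there (chr12:55926510-55927981) with 39 and 17 reads, a ratio of 0.38 (0.202 to 0.688). The FHT-1015 call was weak, with a −log10 p of 3.73 and a −log10 q of 0.908, and did not reach a q under 0.05. H3K27ac at SUOX (chr12:55996429-55998074) had 57 reads in DMSO and 99 in FHT-1015, a ratio of 1.65 (1.18 to 2.33). At IKZF4 (chr12:56006956-56008548) it had 39 and 65 reads, a ratio of 1.59 (1.05 to 2.42). Both intervals lay above 1, but the median ratio over all paired H3K27ac peaks was 1.1, which the IKZF4 interval includes. Of all paired H3K27ac peaks, 86.1% had a lower ratio than the SUOX peak and 83.1% a lower one than the IKZF4 peak. A small MITF peak at the PYM1 and DGKA start (chr12:55928401-55928613, 9 reads) was lost. SOX10 at SUOX (chr12:55996890-55997633) had 26 and 19 reads, a ratio of 0.638 (0.334 to 1.2). Its FHT-1015 peak had a −log10 q of 0.0574 and did not reach a q under 0.05 either.

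The remaining retained SOX10 peaks at PMEL were weak and lay inside the gene. The peak at 3.95 kb (chr12:55962633-55963139) had 14 reads in DMSO and 17 in FHT-1015, a ratio of 1.06 (0.492 to 2.32), and the peak at 5.12 kb (chr12:55961026-55961942) 15 and 15, a ratio of 0.873 (0.398 to 1.92). With counts this small, neither a gain nor a loss could be detected. Other strong lost peaks of the window were SOX10 at chr12:55909251-55909681 in PYM1 (37 reads) and at chr12:55951291-55952013 in DGKA (23 reads), MITF at chr12:55949759-55950121 in DGKA (25 reads) and TFAP2A at chr12:55915016-55915210 in PYM1 (21 reads). For H3K27ac the strongest lost peak (chr12:56009152-56009490, 21 reads) and for SMARCA4 a peak at chr12:55909356-55909605 (16 reads, −log10 p 4.1) were weak by comparison.

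At MLANA the strongest MITF peaks were at the start and inside the gene. The peak on the start (chr9:5890176-5891140, summit at -0.064 kb) had 173 reads in DMSO and 32 in FHT-1015, a ratio of 0.217 (0.144 to 0.317), with a −log10 p of 240 and 29.5. Among paired MITF peaks of the strongest 10%, 12.5% had a lower ratio. SOX10 on the start (chr9:5890597-5892182) had 69 reads and a −log10 p of 68.5 in DMSO and was lost, the strongest lost SOX10 peak of either window. TFAP2A (chr9:5890756-5891271) had only 14 reads and was also lost. SMARCA4 (chr9:5890736-5891023) had 18 and 21 reads, a ratio of 1.27 (0.645 to 2.53). A further MITF peak at chr9:5891255-5891626, with 8 reads, was lost. The printed MLANA promoter lies wholly under the MITF peak of DMSO.

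About 5.05 kb into MLANA all 4 proteins had peaks with summits within 49 bp of one another. MITF (chr9:5895429-5896349) was the strongest MITF peak of the window, with 247 reads in DMSO and 79 in FHT-1015, a ratio of 0.375 (0.287 to 0.484). SOX10 (chr9:5895584-5896529) had 155 and 37 reads, a ratio of 0.208 (0.141 to 0.3), and was the strongest SOX10 peak of the window and 1 of the 2 that were retained. TFAP2A (chr9:5895631-5896185) had 122 and 30 reads, a ratio of 0.256 (0.166 to 0.385). SMARCA4 (chr9:5895601-5896429) had 40 and 28 reads, a ratio of 0.762 (0.453 to 1.27). The 3 transcription factors were therefore lower at this site and each kept a peak, and for SMARCA4 the interval included 1. Strong peaks were lower elsewhere too. Among paired peaks of the strongest 10%, the median ratio was 0.473 for MITF, 0.513 for TFAP2A and 0.405 for SOX10. Of those, 38.8%, 22.9% and 10.9% had a lower ratio than the peak at this site.

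About 4.5 kb upstream of MLANA, inside BRD10, TFAP2A was strongest (chr9:5886148-5886740), with 102 reads in DMSO and 30 in FHT-1015, a ratio of 0.306 (0.197 to 0.464). Among paired TFAP2A peaks of the strongest 10%, 30.6% had a lower ratio. The other 4 antibodies had peaks there in DMSO, and none was called in FHT-1015. Lost were SOX10 (chr9:5886124-5886718, 57 reads), MITF (chr9:5886187-5886626, 30 reads), SMARCA4 (chr9:5886175-5886753, 22 reads) and H3K27ac (chr9:5886276-5887514, 31 reads). The SMARCA4 and H3K27ac peaks were the strongest lost ones of these antibodies at either gene. Between MLANA and ERMP1, MITF at chr9:5870733-5871108 had 65 and 10 reads, a ratio of 0.18 (0.0825 to 0.353). A lower ratio was seen in 7.42% of paired MITF peaks of the strongest 10%. MITF at chr9:5879535-5879977 (34 reads, −log10 p 35.6) was the strongest lost MITF peak. In ERMP1, TFAP2A at chr9:5844838-5845180 (31 reads, −log10 p 29.4) was the strongest lost TFAP2A peak.

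One MLANA site went against this pattern. In BRD10, 57 kb downstream of the MLANA start, H3K27ac (chr9:5947737-5950090) had 25 reads in DMSO and 63 in FHT-1015, a ratio of 2.4 (1.49 to 3.98), the highest of any paired peak at the 2 genes, with summits 1191 bp apart. TFAP2A (chr9:5947827-5948082) had 16 and 29 reads, a ratio of 1.89 (0.992 to 3.72), and MITF (chr9:5947694-5948091) 22 and 18, a ratio of 0.958 (0.484 to 1.87). The second retained SOX10 peak of the window was here (chr9:5947871-5948128), with 15 and 13 reads, a ratio of 0.756 (0.331 to 1.7). SMARCA4 had a peak of 22 reads in FHT-1015 (chr9:5947761-5948491, −log10 p 14) that no DMSO SMARCA4 peak overlapped. By the authors' −log10 p it ranked highest among the SMARCA4 peaks of the 2 windows that were called in FHT-1015 alone.

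**Figure D3:**
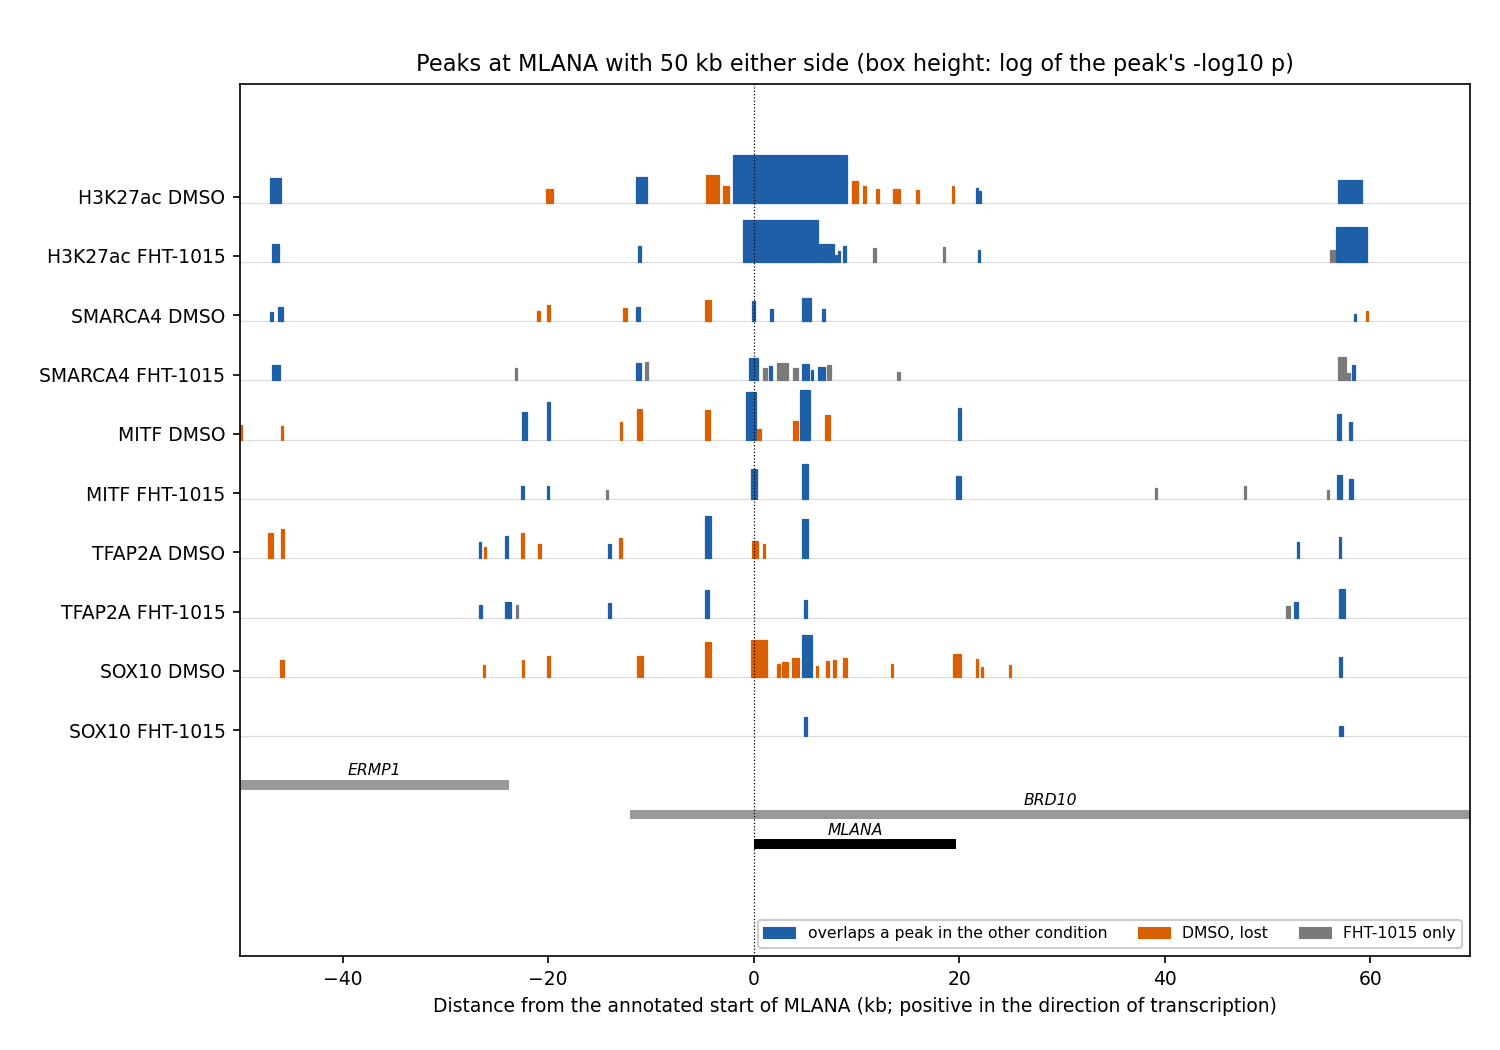
Map of peaks at MLANA, drawn as for PMEL; the horizontal axis is distance from the annotated MLANA start in kb. The SOX10 row for FHT-1015 holds 2 boxes, at 5.05 kb and 57.1 kb, and 9 of the 17 SMARCA4 boxes in FHT-1015 are grey, without a DMSO peak.

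A long H3K27ac domain in DMSO spanned the start of each gene and covered part of its body. At PMEL it ran from chr12:55959504 to 55973679, 14.2 kb, across CDK2 as well, and 32 peaks of the DMSO list (0.047%) were as long. In FHT-1015 4 peaks lay over it, 12.93 kb in all, the longest 5.37 kb. The DMSO summit had 277 reads and lay inside CDK2, at -4.84 kb from the PMEL start, and the strongest FHT-1015 summit had 126 reads and lay at -0.266 kb. The ratio of these 2 summits was 0.433 (0.348 to 0.536), taken at positions 4571 bp apart. Of the 32 DMSO peaks as long, 37.5% had as many FHT-1015 peaks over them.

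At MLANA the domain ran from chr9:5888849 to 5899975, 11.1 kb, as long as only 77 peaks of the list (0.113%), and 5 FHT-1015 peaks lay over it, 9.51 kb in all, the longest 7.33 kb. Its summit in DMSO had 203 reads at 5.36 kb into the gene, and in FHT-1015 108 reads at 0.286 kb. The ratio of these 2 summits was 0.507 (0.397 to 0.643), taken at positions 5073 bp apart, so like that of PMEL it is not a change at 1 place. Of those 77 peaks, 14.3% had as many FHT-1015 peaks over them. In both domains the highest H3K27ac thus sat within 1 kb of a site with all 4 proteins in DMSO, and within 1 kb of the annotated start in FHT-1015. The start of each gene itself lay in a site with all 4 proteins in DMSO, and the FHT-1015 summit fell inside that site. The DMSO and FHT-1015 places therefore do not differ in this respect.

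The share of each gene body under peaks was also taken by antibody. SOX10 peaks covered 34.8% of PMEL in DMSO and 5.79% in FHT-1015, and 27.5% and 1.64% of MLANA. MITF covered 13.2% and 8.08% of PMEL and 12.3% and 5.03% of MLANA. H3K27ac covered 77.9% and 53.9% of PMEL and 57.7% and 44.9% of MLANA. SMARCA4 went the other way, from 29.3% to 38.5% of PMEL and from 7.35% to 24.9% of MLANA, and TFAP2A from 11.8% to 15.6% of PMEL but from 5.7% to 1.37% of MLANA. A summed length depends on how many weak peaks were called. No share over all gene bodies was taken, so these values are not shown to be particular to the 2 genes. The whole lists held 103379 peaks in DMSO and 33268 in FHT-1015 for SOX10, 89519 and 92716 for MITF, and 142667 and 118942 for TFAP2A. They held 68093 and 48103 for H3K27ac and 101987 and 89761 for SMARCA4. The larger MITF list in FHT-1015 held more weak peaks. A q under 0.05 was reached by 89.7% of MITF peaks in DMSO and 61.1% in FHT-1015, with median summit reads of 15 and 8. For SOX10 the shares were 92.3% and 57.9%.

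**Figure D4:**
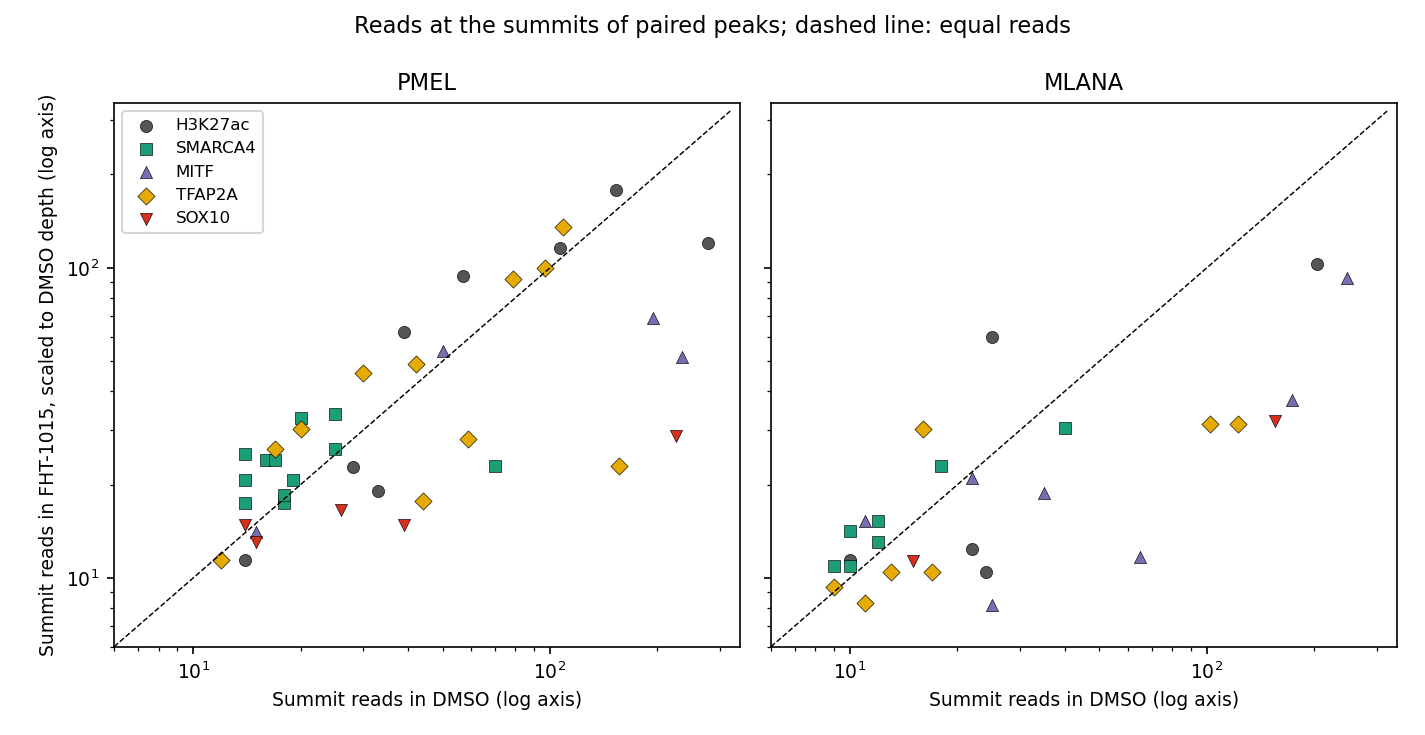
Reads at the summits of paired peaks, each the strongest overlapping peak of the other: DMSO reads on the horizontal axis and FHT-1015 reads divided by the ratio of library depths on the vertical axis, both logarithmic, 1 point per pair. Points of MITF, SOX10 and TFAP2A with over 100 DMSO reads lie below the dashed line of equal reads, except the TFAP2A peak on the PMEL start (109 and 130 reads), and most SMARCA4 points lie above it.

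Over all paired peaks, SMARCA4 had a higher depth-scaled value in FHT-1015 at 10 of 12 pairs at PMEL (median ratio 1.29, from 0.327 to 1.79) and 6 of 7 at MLANA (median 1.21, from 0.762 to 1.42), beside a median of 1.09 for all paired SMARCA4 peaks, of which 40.7% were lower. MITF was lower at 3 of 4 pairs at PMEL (median 0.647) and 6 of 7 at MLANA (0.375), against 0.837 in the whole list, where 64.8% were lower. TFAP2A was lower at 4 of 11 pairs at PMEL (median 1.16) and 5 of 7 at MLANA (0.758), against 0.919, with 57.3% lower in its list. SOX10 was lower at 4 of 5 pairs at PMEL (0.638) and 2 of 2 at MLANA (0.482), against 0.588, with 90.4% lower. H3K27ac was lower at 4 of 8 (0.953) and 3 of 5 (0.563), against 1.1, with 42.6% lower.

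Peaks of different antibodies were then set on each other. Overlapping DMSO peaks of all 5 antibodies were merged into sites, 29 at PMEL and 28 at MLANA. All 5 were present at 2 sites at PMEL (6.9%) and 4 at MLANA (14.3%), against 9.81% of 234936 sites in the genome. Of these, 2 of 2 and 2 of 4 had all 5 in FHT-1015 too, against 35.1%. Long H3K27ac peaks join separate places into 1 site, and a peak anywhere in a site counted. The site over the PMEL start was 15.7 kb long and that over the MLANA start 11.1 kb. Sites of the 4 proteins without H3K27ac, a choice made after seeing the data, numbered 34 at PMEL and 35 at MLANA. Of these, 4 at each gene held all 4 proteins, 11.8% and 11.4%, near the 12.3% of 240367 sites in the genome. Of the sites with all 4, 2 at PMEL and 1 at MLANA had all 4 in FHT-1015, against 27.5% in the genome. A peak anywhere in the site counted, so it need not overlap the DMSO peak of that protein. At the PYM1 and DGKA start, 1 of the 2 PMEL sites, the DMSO MITF peak was lost. The FHT-1015 MITF peak there (chr12:55926831-55927109) overlapped no DMSO MITF peak. The SOX10 peaks of this site in FHT-1015 had a −log10 q of 0.908 and 1.01, so none reached a q under 0.05. In the MLANA window only 1 FHT-1015 SOX10 peak reached it. Counts of sites with every protein in FHT-1015 thus rest partly on weak SOX10 calls. At PMEL SMARCA4, MITF and TFAP2A each had an FHT-1015 peak somewhere in all 4 sites that held the 4 proteins in DMSO, and SOX10 in 2. At MLANA SMARCA4 had one at 3, MITF and TFAP2A at 2 and SOX10 at 1. Over the 29527 such sites of the genome SMARCA4 had an FHT-1015 peak at 22529, TFAP2A at 20303, MITF at 16573 and SOX10 at 10277. At each gene the strongest DMSO peak of each of the 4 proteins lay at a site that held them all.

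Most MITF peaks lay on SOX10 peaks. Of the DMSO MITF peaks, 10 of 12 at PMEL and 12 of 15 at MLANA overlapped a SOX10 peak, against 52.7% in the whole list. All 4 retained MITF peaks at PMEL and 6 of 7 at MLANA were among them. MITF overlapped TFAP2A at 6 of 12 peaks at PMEL and 8 of 15 at MLANA (48.6%). Conversely, 8 of 21 SOX10 peaks at PMEL and 11 of 21 at MLANA overlapped MITF (45.0% in the whole list). SMARCA4 lay on 8 and 6 of the 21 SOX10 peaks (55.0%). H3K27ac was present at 16 of 21 SOX10 peaks at PMEL and 17 of 21 at MLANA (49.6%), and all 7 retained SOX10 peaks of the 2 genes lay in it. Of the lost SOX10 peaks that lay in H3K27ac, 8 of 11 at PMEL and 10 of 15 at MLANA were still under an H3K27ac peak in FHT-1015, near the 70.4% of the genome. H3K27ac also lay at 18 of 21 SMARCA4 peaks at PMEL and 10 of 13 at MLANA (55.8%), where all 8 retained SMARCA4 peaks were in it, and at 10 of 15 and 7 of 15 TFAP2A peaks (31.8%). For retained peaks lying on a peak of another antibody no whole-list share was taken, so those counts stand without a background. The long H3K27ac domains take in retained and lost SOX10 peaks alike.

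FHT-1015 peaks with no DMSO peak were mostly weak. SMARCA4 had 5 of 20 at PMEL and 9 of 17 at MLANA, against 45.4% in its whole list, and 7 of the 9 at MLANA lay in the gene or at the site 57 kb downstream. TFAP2A had 5 of 16 and 2 of 9 (34.4%), MITF 3 of 7 and 4 of 11 (64.8%), SOX10 3 of 8 and 0 of 2 (38.5%), and H3K27ac 2 of 14 and 3 of 12 (19.8%). These whole-list shares include weak calls, since 61.1% of the FHT-1015 MITF list and 57.9% of the SOX10 list had a q under 0.05. The strongest of an antibody at PMEL, 1 given for each, was for TFAP2A at chr12:55962476-55962795 in the gene (−log10 p 8.0, 17 reads), for MITF at chr12:55926831-55927109 at the PYM1 and DGKA start (7.69, 17 reads) and for SMARCA4 at chr12:55962721-55963287 (7.49, 17 reads). For SOX10 the strongest, at chr12:55928300-55928497, had 13 reads. At MLANA the SMARCA4 peak in BRD10 was followed by others of SMARCA4 at chr9:5880320-5880556 (7.8), chr9:5893176-5894266 (7.5) and chr9:5898039-5898408 (5.89). For the other antibodies the strongest were H3K27ac at chr9:5909358-5909555 (5.41, 11 reads), MITF at chr9:5938589-5938785 (4.35, 7 reads) and TFAP2A at chr9:5867745-5867955 (4.32, 8 reads).

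Seen against other genes, the fewer SOX10 peaks were not particular to PMEL. Among 7344 protein-coding genes with at least 10 SOX10 peaks in DMSO in the same kind of window, 97.3% had fewer in FHT-1015 and the median retained share was 22.2%. The retained share of PMEL was matched or undercut by 53.5% of those genes and that of MLANA by 17.4%. For the ratio of peak numbers, 0.381 at PMEL and 0.0952 at MLANA, the shares were 55.0% and 8.63%. The SMARCA4 retained share at PMEL was at or above that of 96.1% of 7149 genes, a rank taken by the 1 bp overlap rule alone. The SMARCA4 ratio at MLANA, 1.31, was at or above that of 92.4%, a rank taken in the narrow lists alone. Windows of neighbouring genes overlap, so these genes are not independent of one another.

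The same windows were laid around 19 other pigment cell genes, a list of melanosome and lineage genes. SOX10 peaks were fewer in FHT-1015 at 18 of them and more numerous at 1, TYRP1, an enzyme of melanin synthesis. Their median retained SOX10 share was 16.7%, from 0.0% at MLPH to 78.6% at TYRP1, with 393 peaks in DMSO, 144 in FHT-1015 and 104 retained in all. PMEL lay above that median and MLANA below it. MITF and TFAP2A peaks were each fewer at 12 genes and more numerous at 5, SMARCA4 peaks fewer at 10 and more numerous at 8, and H3K27ac peaks fewer at 15 and more numerous at 2. The median retained shares of the list were 52.6% for MITF, 52.8% for TFAP2A, 69.2% for SMARCA4 and 53.8% for H3K27ac. The retained SMARCA4 and TFAP2A shares of PMEL were above these medians and those of MLANA below, and the H3K27ac and MITF shares of both genes were below.

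**Figure D5:**
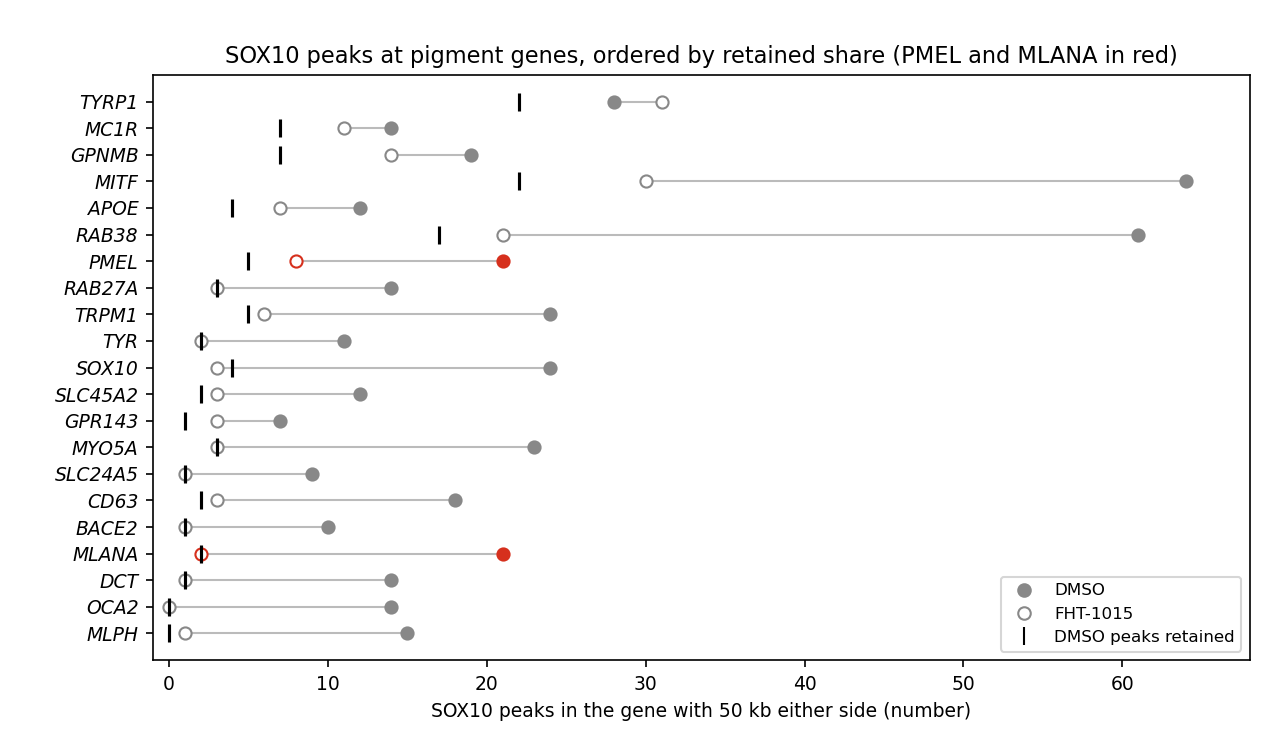
Number of SOX10 peaks (horizontal axis) in the windows of PMEL and MLANA (red) and 19 other pigment cell genes (grey), ordered by retained share; filled points are DMSO, open points FHT-1015, and black ticks the DMSO peaks retained, 1 library per condition. PMEL goes from 21 to 8 and MLANA from 21 to 2, and TYRP1 at the top is the gene with more SOX10 peaks in FHT-1015.

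Genes of like pattern were sought by the Euclidean distance between log2(peak number + 1) in the 10 libraries, over 20033 protein-coding genes. Nearest to PMEL were NMNAT1 (distance 0.569), ENO1 (0.741) and SNAI2 (0.747). Nearest to MLANA were FRMD5 (0.777), TBCK (0.879) and LIN7C (0.891). For SOX10 the counts under DMSO and FHT-1015 were 17 and 7 at NMNAT1, 21 and 6 at ENO1 and 16 and 9 at SNAI2. They were 18 and 2 at FRMD5, 18 and 3 at TBCK and 17 and 3 at LIN7C. The likeness is one of peak counts alone, taken in the same 10 libraries for each gene.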

How the data were processed

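Peak lists of 92-1 cells were used, 1 narrow list for each of the 10 immunoprecipitated libraries and broad lists for H3K27ac and SMARCA4 as an alternative. The submitters' processing notes name BWA, SAMtools, Picard and MACS2, without settings, and build hg38. Libraries were not pooled. The lists, as deposited by the authors, give per peak a fold enrichment (a ratio over the caller's background), a −log10 p, a −log10 q and a score, which in narrow lists was 10 times the −log10 p, truncated, and was not used. The lowest −log10 p was just above 2.0, so weak peaks were included.

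Summit reads x were recovered by taking the fold as (x + 1)/(λ + 1), where λ is the background, and p as a Poisson upper tail. They were whole within 0.002 for at least 99.973% of peaks in every list. This form was inferred from the values. Median summit reads per list ranged from 8 to 27. The depth ratio of 2 libraries was that of their lowest backgrounds per base of the shortest peak. Depth-scaled ratios were taken for reciprocal strongest overlapping peaks, with exact binomial 95% intervals. The scripts were tested on simulated data.

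With 1 library per group no test was made. The peaks given in full were, per antibody and gene, those within 1 kb of the start, the strongest, the strongest lost and the strongest FHT-1015-only peak, and all retained SOX10 peaks. Other sites, with several antibodies or at neighbouring starts, were chosen after their values were seen. The genes and lists were chosen with earlier results of these data known. Exons and introns were not used here. The strand of PMEL is background knowledge. Alternatives changed the overlap rule, thresholds, window and list. Python 3.11.15 with numpy 2.4.6, pandas 2.3.3 and scipy 1.17.1 was used.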

Additional observations from a re-analysis of the deposited data

How the results depend on the processing

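Each value rests on 1 library per condition and on few peaks, and a lost peak may still hold reads: SOX10 peaks called in FHT-1015 at the 2 genes had 11 to 37 summit reads. No paired analysis was possible because each antibody and condition had 1 library. Every alternative set at the outset was run. Under the alternatives 67 retained shares stayed within their counting interval and 13 moved beyond it. The cause was not tested where a value moved, beyond the fewer peaks that a threshold or window leaves.

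With peaks of −log10 p 10 or more alone in either list, retained shares became 87.5% (H3K27ac), 50% (SMARCA4) and 75% (MITF) at PMEL, and 0% for SMARCA4 and for SOX10 at MLANA. Ratios of peak number reversed to 1.12 (H3K27ac), 2 (SMARCA4) and 0.778 (TFAP2A) at PMEL, and moved to 0.167 (SOX10) there and to 0.333 (H3K27ac), 0.25 (TFAP2A) and 0 (SOX10) at MLANA. Such thresholds leave 2 to 9 DMSO peaks. A q under 0.05 gave SOX10 ratios of 0.0952 at PMEL and 0.05 at MLANA. Summits within 200 bp gave retained shares of 15.8% (H3K27ac) and 52.4% (SMARCA4) at PMEL, and 50% coverage of the DMSO peak gave 61.9% (SMARCA4) and 0% (SOX10). With 10 kb either side PMEL SMARCA4 had a retained share of 100% and its ratio reversed to 1.08, the PMEL SOX10 ratio was 0.25, and MLANA ratios were 2 (SMARCA4) and 0.429 (MITF). With 100 kb the MLANA SOX10 ratio was 0.16. In broad lists ratios reversed to 1.08 (H3K27ac) and 1.06 (SMARCA4) at PMEL and 0.765 (SMARCA4) at MLANA.

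Of the alternatives chosen after seeing the data, strong DMSO peaks against whole FHT-1015 lists gave 100% for H3K27ac, 100% for SMARCA4 and 75% for MITF at PMEL, scaling DMSO reads to the FHT-1015 depth, run for SMARCA4, MITF and TFAP2A only, moved none of their shares, and sites without H3K27ac raised the PMEL sites with every antibody from 2 to 4. The SOX10 ratio was below 1 at both genes under every alternative run for it.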
